A study of Mus musculus with 2 samples.

Results

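The genes described are the potassium channel genes of the mouse, taken as all protein-coding genes with a symbol that opens with Kcn and a further lower-case letter. They number 94 of 21474 matched protein-coding genes, fall into 21 subfamilies by symbol and were chosen by symbol and gene type. A further 5 Kcn-named genes (Kcnmb4os1, Kcnmb4os2, Kcnd3os, Kcnab3os and Kcnq1ot1) are annotated as non-coding and were left out. Expression was measured by total RNA sequencing of hindbrain (cerebellum, pons and medulla) from mice of strain B6NTac;B6NCrl/Lap on postnatal day 0. The series holds 1 group, with 2 libraries named replicate 1 (a pool of 15 mice) and replicate 2 (a pool of unstated size), both of mixed sex. After depletion of ribosomal RNA, molecules longer than 200 nt were sequenced as strand-marked read pairs. Because 1 donor identifier covers both libraries, their spread may be partly technical.

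Potassium channels let potassium leave or enter a cell and so set its resting potential and end its action potentials. The pore is built from subunits that each carry a short selectivity filter, in which glycine and tyrosine or phenylalanine line the path of the ion. Families differ in what opens them: voltage (Kcna to Kcnd, Kcnq and Kcnh), calcium or sodium (Kcnma, Kcnn, Kcnt), or a steep dependence on the potassium gradient (the inward rectifiers, Kcnj), while the two-pore genes (Kcnk) encode background leak channels. Kcnf, Kcng, Kcns and Kcnv encode subunits that do not form channels alone but modify Kcnb channels, and Kcnab, Kcne, Kcnip and Kcnmb encode auxiliary subunits. In brainstem and cerebellum these channels shape fast firing, pacemaking and the buffering of potassium by glia.

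The codons of the selectivity filter are shown first, because most pore-forming members and no auxiliary members held the codon strings searched. Each coding sequence was searched in frame, on its coding strand alone, for the codon strings ACNNNNGGNTATGGN, ACNNNNGGNTACGGN, ACNNNNGGNTTTGGN and ACNNNNGGNTTCGGN, which encode threonine, any residue, glycine, tyrosine or phenylalanine, and glycine. The 4 strings differ in the codon of the aromatic residue and cannot match the same bases. A match was found in 64 of 77 pore-forming or modifier members and in 0 of 17 auxiliary and regulator members. Over all genes with a coding sequence, the members included, it was found in 227 of 21569 (1.05%). Members were searched in their protein-coding transcript of highest mean TPM, but all genes in their longest coding sequence. All 17 Kcna to Kcnd genes, all 5 Kcnq genes, all 10 modifier genes and all 14 two-pore genes held a match, and 11 two-pore genes held more than 1, as their subunits carry a pair of pore domains. Matches were found in 13 of 15 inward rectifier genes, 4 of 8 genes of the calcium- and sodium-activated class and 1 of 8 Kcnh genes, Kcnh5. A member without a match lacks only these letters in the transcript searched. The windows below are 45 nt of coding strand from the GENCODE M21 transcripts (GRCm38, the mm10 build), with the 15 nt of the match in capitals, for high members of several pore-forming classes, for Kcnh5 as the single match of its class and for the choroid plexus gene Kcnj13.
Kcnd2: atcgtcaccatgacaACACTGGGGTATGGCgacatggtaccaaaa
Kcna6: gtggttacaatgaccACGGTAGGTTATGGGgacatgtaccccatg
Kcna3: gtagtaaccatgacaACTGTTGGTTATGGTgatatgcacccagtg
Kcnc1: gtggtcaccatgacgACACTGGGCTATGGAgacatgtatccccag
Kcnk9, first pore: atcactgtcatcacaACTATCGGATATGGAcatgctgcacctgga
Kcnk9, second pore: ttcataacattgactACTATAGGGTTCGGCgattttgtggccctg
Kcnt1: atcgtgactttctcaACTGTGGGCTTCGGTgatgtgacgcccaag
Kcnma1: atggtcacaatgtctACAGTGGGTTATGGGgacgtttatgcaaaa
Kcnh5: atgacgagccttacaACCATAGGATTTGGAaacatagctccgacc
Kcnj3: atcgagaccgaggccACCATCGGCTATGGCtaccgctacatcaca
Kcnj13: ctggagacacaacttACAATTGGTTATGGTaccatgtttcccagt

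These windows lie in coding exons. On the plus strand, those within 1 exon are chr3:107037596-107037640 (Kcna3), chr7:46427958-46428002 (Kcnc1), chr2:25894352-25894396 (Kcnt1) and chr2:55437612-55437656 (Kcnj3). On the minus strand they are chr6:126738632-126738676 (Kcna6), chr15:72512704-72512748 (second pore of Kcnk9), chr14:23528398-23528442 (Kcnma1), chr12:75087451-75087495 (Kcnh5) and chr1:87389006-87389050 (Kcnj13). The others join 2 exons, so their coordinates span an intron: chr6:21217391-21714156 (Kcnd2, plus) and chr15:72513022-72546018 (first pore of Kcnk9, minus). The windows of Kcna6 and Kcna3 differed at 11 of 45 bases and at 3 of the 15 filter bases. The gene counts of all 94 members lay within 0.005 of a whole number in both libraries, so no fractional share of a read was seen in their totals. A shared read given whole to a single gene would not show in such totals.

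The tables held 54313140 expected counts (estimated fragment counts) for replicate 1 and 77142270 for replicate 2. Levels are given in TPM, a relative abundance of transcripts that divides counts by effective length and has a fixed sum. Protein-coding genes held 29.6% of all TPM in replicate 1 and 20.5% in replicate 2, and coding genes typically had a 1.44-fold higher TPM in replicate 1. Of the members 70 had the higher TPM in replicate 1, as did 56 of the 60 that reached 1 TPM in both. Differences between the libraries are therefore read from scaled counts, and differences between genes from TPM within a library. All 7 hindbrain marker genes reached 1 TPM in both libraries, and of 6 forebrain markers 3 did and 2 had 0 counts. All 5 neuron, 5 astrocyte and radial glia, 5 oligodendrocyte lineage and 3 endothelial markers reached 1 TPM as well, as did 2 of 3 markers each of microglia and cochlea. No test between genes or libraries is given, because the smallest p that an exact sign-flip test over 2 libraries allows is 0.5. In bulk tissue, fewer cells of a type and less RNA per cell cannot be told apart.

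Newborn hindbrain held RNA of most potassium channel genes, at modest levels. At 1 TPM or more in both libraries were 60 of 94 members (63.8%), against 54.7% of all protein-coding genes. A further 5 members passed in 1 library, 23 stayed below 1 TPM in both with some counts, and 6 had 0 counts. At 5 TPM or more in both were 21 members, and at 10 TPM or more 12. The median of mean TPM was 1.98 for the members and 2.08 for all coding genes, and among those at 1 TPM or more it was 4.28 for members and 8.12 for coding genes. The family summed to 514 TPM in replicate 1 and 361 TPM in replicate 2, or 0.174% and 0.177% of coding TPM, and the 10 highest members held 46.5% and 44.8% of it. The order of members was close between libraries, with a Spearman correlation of TPM across the 94 genes of 0.979, beside 0.982 across all coding genes. This is a description across genes, which are not independent replicates.

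**Figure D1:**
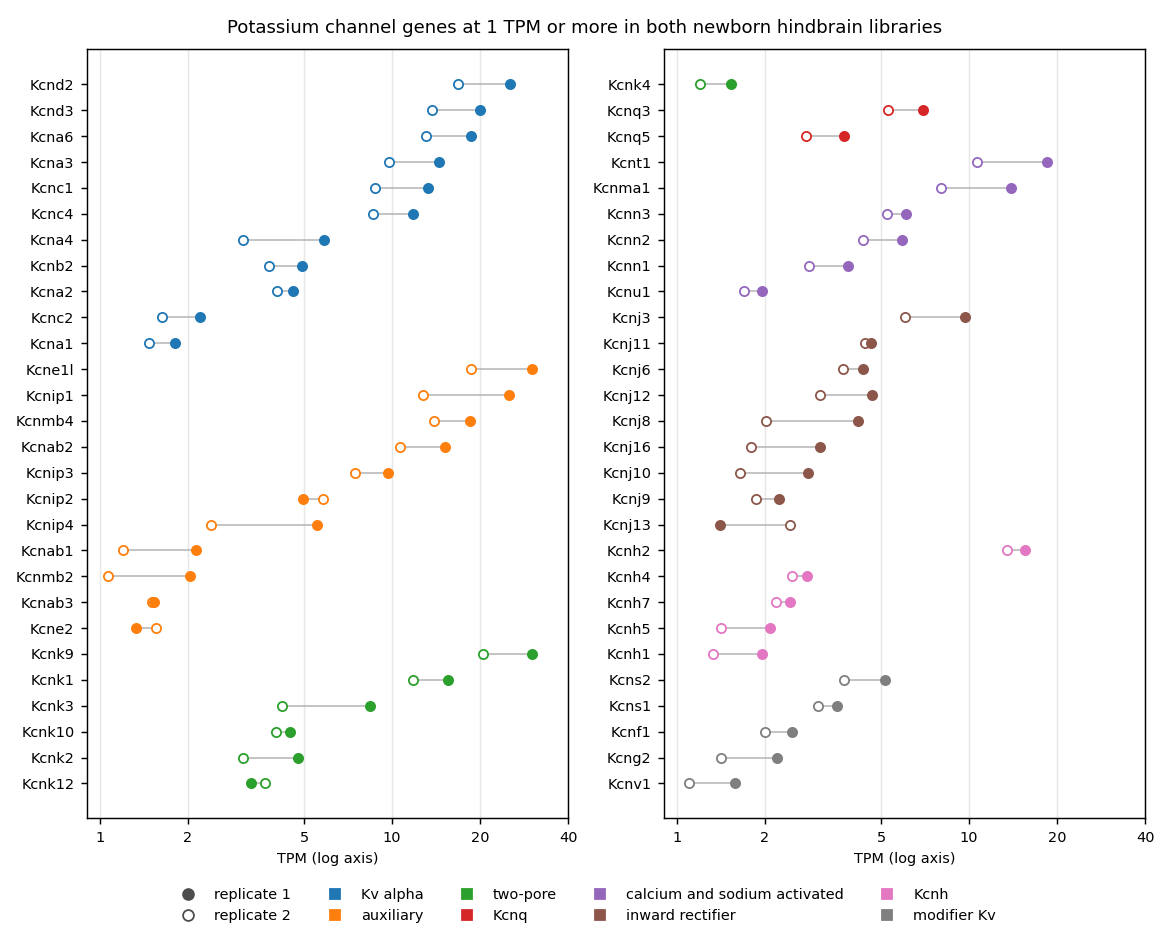
TPM (log axis) of 56 of the 60 members at 1 TPM or more in both libraries, grouped and coloured by class (Kv alpha stands for Kcna to Kcnd), with replicate 1 as filled and replicate 2 as open points joined by a line. Kcnk9 lies furthest right of these at 30.2 and 20.5 TPM by its mean, and replicate 1 lies to the right for 52 of the 56 genes.

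Kcnq genes encode the subunits of the M-current, a slow voltage-gated current that restrains repetitive firing, and the class held 10.5 ± 0.529% of the family's TPM (SD, n = 2). Kcnq3 had 6.93 TPM in replicate 1 and 5.28 TPM in replicate 2, or 5863 and 8881 expected counts. Kcnq5 had 3.74 and 2.77 TPM. The difference within a library, on the log2(TPM + 0.1) scale, was 0.89 ± 0.024 (SD, n = 2), a 1.85-fold excess of Kcnq3 that was beyond the spread. A pair is called beyond the spread where both libraries have 1 direction and the mean difference is over 3 SD. With n = 2 that SD is itself uncertain, so the rule is a description of these libraries and not a test. Kcnq1, best known from heart and inner ear, was at 0.33 and 0.36 TPM, but its deposited posterior mean, an estimate averaged over possible read assignments, was 4.60 and 1.63 TPM (intervals 0.504 to 10.6 and 0.408 to 3.41, of a level not stated).

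Among the main voltage-gated pore genes (Kcna to Kcnd), 13 of 17 reached 1 TPM in both libraries, and together they held 26.9 ± 0.342% of the family's TPM (SD, n = 2). The A-type genes Kcnd2 and Kcnd3, whose channels inactivate quickly and act in dendrites and soma, led this class. Kcnd2 had 25.3 TPM in replicate 1 and 16.8 TPM in replicate 2. Kcnd3 had 20.04 and 13.7 TPM, so Kcnd2 was 1.24-fold higher, a small difference but beyond the spread. Kcnd1 stayed at 0.94 and 0.60 TPM.

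Kcna genes encode axonal and presynaptic channels that hold down excitability. Kcna6 had 18.6 TPM in replicate 1 and 13.05 TPM in replicate 2, and Kcna3 had 14.5 and 9.72 TPM. Kcna6 exceeded Kcna3 1.31-fold and Kcna3 exceeded Kcna4 (5.83 and 3.08 TPM) 2.75-fold, both beyond the spread. On transcripts annotated as protein coding alone the first of these reversed, with 4.38 and 0.41 TPM for Kcna6 against 14.5 and 9.72 TPM for Kcna3. Kcna2 and Kcna1, the major juxtaparanodal pair of mature myelinated axons, were lower, at 4.58 and 4.03 TPM for Kcna2 and at 1.81 and 1.47 TPM for Kcna1. Kcna2 exceeded Kcna1 2.54-fold, while Kcna4 and Kcna2 changed order between the libraries. Kcna5 passed 1 TPM in replicate 1 only (2.07 and 0.91 TPM), Kcna7 had 7 and 30 counts, and Kcna10 had none.

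Kcnc genes encode the fast channels of rapidly firing neurons. Kcnc1 (13.2 and 8.74 TPM) and Kcnc4 (11.8 and 8.63 TPM) did not differ beyond the spread. Kcnc2 had 2.20 TPM in replicate 1 and 1.63 TPM in replicate 2. Kcnb2, a delayed rectifier gene, had 4.93 and 3.78 TPM.

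The modifier genes were low as a class, with 5 of 10 at 1 TPM in both libraries and 3.27 ± 0.133% of the family's TPM (SD, n = 2). Kcns2 was highest at 5.17 TPM in replicate 1 and 3.74 TPM in replicate 2, followed by Kcns1 at 3.53 and 3.03 TPM. These neighbours did not differ beyond the spread. Kcnf1 had 2.48 and 2.00 TPM, Kcng2 2.20 and 1.42 TPM and Kcnv1 1.58 and 1.10 TPM. The level of Kcng2 is uncertain, since its posterior mean was 5.15 and 2.29 TPM (intervals 2.04 to 11.1 and 1.32 to 4.02), beside 5.11 and 3.73 TPM for Kcns2. The other modifiers, Kcng1, Kcng3, Kcng4, Kcns3 and Kcnv2, had means from 0.085 to 0.635 TPM.

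In the Kcnh class, 5 of 8 genes reached 1 TPM and Kcnh2 stood well above the rest. Kcnh2, which encodes the ERG channel known from cardiac repolarisation and also present in brainstem neurons, had 15.5 TPM in replicate 1 and 13.5 TPM in replicate 2. It exceeded Kcnh4 (2.78 and 2.47 TPM) 5.36-fold, a log2 difference of 2.42 that was 1.78 on transcripts annotated as protein coding. Kcnh7 had 2.44 and 2.19 TPM, Kcnh5 2.09 and 1.42 TPM and Kcnh1 1.95 and 1.33 TPM. Kcnh6 passed in replicate 1 only (2.22 and 0.83 TPM), Kcnh8 in replicate 2 only (0.97 and 1.17 TPM), and Kcnh3 stayed below 1 TPM in both.

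The calcium- and sodium-activated genes were led by the large-conductance channels. Kcnt1, the sodium-activated channel gene, had 18.5 TPM in replicate 1 and 10.6 TPM in replicate 2, while its paralogue Kcnt2 had 0.90 and 1.04 TPM. Kcnma1, the large-conductance channel opened by calcium and voltage together, had 13.9 and 8.04 TPM. That level, and sums that use it, leave out Kcnma1-205, which had a mean of 6.83 TPM and was not counted under this gene. On transcripts annotated as protein coding, Kcnt1 had 7.45 and 4.51 TPM, below Kcnma1 at 13.9 and 8.05 TPM. The small-conductance genes, whose channels give the pause after a spike, lay close together. Kcnn3 had 6.10 and 5.24 TPM and Kcnn2 5.90 and 4.32 TPM, which did not differ beyond the spread, and Kcnn2 exceeded Kcnn1 (3.84 and 2.83 TPM) 1.52-fold. On transcripts annotated as protein coding that order reversed, with 2.45 and 1.48 TPM for Kcnn2 and 3.84 and 2.83 TPM for Kcnn1. Kcnn4, the intermediate-conductance gene known from blood and epithelial cells, had 0.31 and 0.53 TPM. Kcnu1, known for the potassium current of sperm, had 1.96 and 1.70 TPM from 176 and 259 counts, of which the transcript Kcnu1-202, with a coding sequence of 1143 nt, held 95.3% and 69.9% of TPM.

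Of the 14 two-pore genes, 7 reached 1 TPM, and 2 of them were among the 11 highest members. Kcnk9, an acid-sensitive leak channel gene that is imprinted in mouse brain, had 30.2 TPM in replicate 1 and 20.5 TPM in replicate 2. Kcnk1 had 15.5 and 11.8 TPM, so Kcnk9 was 1.83-fold higher, beyond the spread. Kcnk3, the other main acid-sensitive leak channel gene, had 8.40 and 4.21 TPM. Its position below Kcnk1 and above Kcnk10 (4.49 and 4.01 TPM) was not beyond the spread. Kcnk2 had 4.77 and 3.10 TPM, Kcnk12 3.30 and 3.67 TPM and Kcnk4 1.53 and 1.20 TPM. Kcnk13 had 1.00 and 0.35 TPM, and Kcnk6, Kcnk15 and Kcnk5 had means from 0.315 to 0.420 TPM. Kcnk16, Kcnk18 and Kcnk7 had 0 counts.

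Inward rectifier genes formed a flat series, with 9 of 15 at 1 TPM in both libraries and 7.71 ± 0.270% of the family's TPM (SD, n = 2). Kcnj3, the common subunit of the channels opened by G proteins, was highest with 9.65 TPM in replicate 1 and 6.04 TPM in replicate 2. Its partners were lower, with 4.34 and 3.70 TPM for Kcnj6 and 2.23 and 1.87 TPM for Kcnj9. Kcnj11, the neuronal pore of the ATP-sensitive channel, had 4.61 and 4.39 TPM, and Kcnj8, its counterpart in pericytes and smooth muscle, had 4.18 and 2.02 TPM. The glial genes Kcnj16 and Kcnj10 had 3.10 and 2.80 TPM in replicate 1 and 1.79 and 1.65 TPM in replicate 2. Of the 8 neighbouring pairs among these 9 genes, 1 differed beyond the spread (Kcnj16 over Kcnj10, 1.09-fold). Kcnj2, the classical strong rectifier gene, was just below 1 TPM (0.98 and 0.88 TPM), and Kcnj14, Kcnj5, Kcnj4 and Kcnj15 had means from 0.020 to 0.270 TPM. For Kcnj15, the lowest of these at 0.03 and 0.01 TPM, the posterior mean was 1.31 and 0.45 TPM (intervals 0.179 to 2.89 and 0.0758 to 0.958).

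Auxiliary genes held 22.0 ± 0.875% of the family's TPM (SD, n = 2), with 11 of 16 at 1 TPM in both libraries. Kcne1l, which encodes a small single-span subunit (named KCNE5 in human), had 30.1 TPM in replicate 1 and 18.6 TPM in replicate 2 and was the third highest member. It exceeded the next gene of its subfamily, Kcne2 (1.33 and 1.56 TPM), 15.4-fold. Kcne4 had 0.22 and 0.38 TPM, Kcne3 had 11 counts and 1 count, and Kcne1 had 0 and 3 counts. The Kcnip genes encode calcium-binding subunits of Kcnd channels, and all 4 were measured above 1 TPM. Kcnip1 had 25.2 and 12.8 TPM, Kcnip3 9.67 and 7.46, Kcnip2 4.95 and 5.81, and Kcnip4 5.54 and 2.41 TPM. None of the 3 neighbouring pairs of Kcnip genes differed beyond the spread.

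Kcnmb4, the neuronal beta subunit of the large-conductance channel, had 18.45 TPM in replicate 1 and 13.9 TPM in replicate 2 and exceeded Kcnmb2 (2.04 and 1.07 TPM) 10.2-fold. Kcnmb1, the smooth muscle beta subunit, had 11 and 34 counts and Kcnmb3 none. Of the cytoplasmic beta subunits of Kcna channels, Kcnab2 had 15.1 and 10.7 TPM and exceeded Kcnab1 (2.14 and 1.20 TPM) 7.50-fold, and Kcnab3 had 1.53 and 1.51 TPM. Kcnrg, which regulates the assembly of voltage-gated channels, had 0.50 and 0.38 TPM. Across all subfamilies 40 neighbouring pairs were compared, of which 18 differed beyond the spread and 22 did not. The 18 include small differences, such as Kcnh5 over Kcnh1 (1.07-fold), whose deposited TPM intervals overlapped in both libraries.

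The 6 members with 0 counts in both libraries were Kcna10, Kcnj1, Kcnk16, Kcnk18, Kcnk7 and Kcnmb3. A count of 0 allows up to 3 counts, which is at most 0.0648 TPM for these genes, for counting error only. The deposited intervals can reach above that limit: the interval of Kcna10 reached 0.803 TPM in replicate 1 and 0.296 TPM in replicate 2. Kcnj1 is best known from kidney, Kcna10 from inner ear and Kcnk18 from sensory ganglia.

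The weight of a class depended on whether RNA molecules or fragments were counted. By TPM, the order was Kcna to Kcnd (26.9%), auxiliary (22.0%), two-pore (13.7%), Kcnq (10.5%), calcium- and sodium-activated (9.74%), inward rectifier (7.71%), Kcnh (6.02%) and modifier genes (3.27%). By share of expected counts, which are not divided by length, Kcna to Kcnd held 37.2% and Kcnq 18.3%, while auxiliary genes held 11.98% and two-pore genes 7.49%. Each class share by TPM differed between the libraries by less than 1.5 percentage points, with auxiliary genes furthest apart at 22.7% in replicate 1 and 21.4% in replicate 2.

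**Figure D2:**
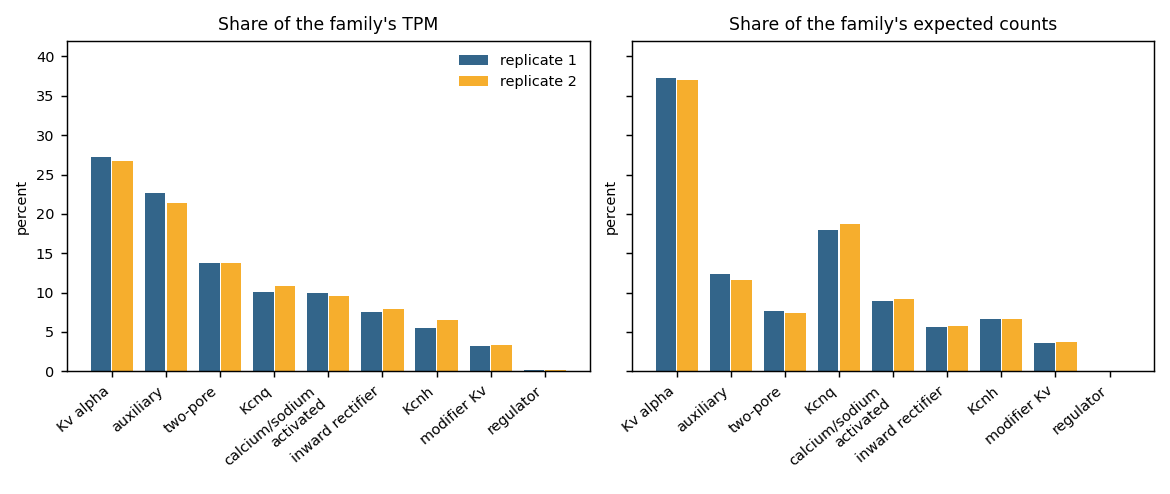
Share (percent) of the family's TPM (left) and of its expected counts (right) held by each class, with replicate 1 left of replicate 2 in each pair of bars and Kv alpha standing for Kcna to Kcnd. Kcnq genes hold 10.5% by TPM and 18.3% by counts, and auxiliary genes 22.0% and 11.98%.

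Partner genes outside the family were mostly present. Of 23 listed channel partners 20 reached 1 TPM in both libraries. Calmodulin genes, which serve Kcnq and Kcnn channels among many targets, were among the highest, with 521 TPM in replicate 1 and 388 TPM in replicate 2 for Calm3 and 260 and 161 TPM for Calm2. Vapa, whose protein ties Kcnb channels to contacts between endoplasmic reticulum and cell surface, had 63.8 and 41.0 TPM. The lowest were Lrrc52 with 0 and 10 counts and Lrrc26 with 0 and 30 counts, both auxiliary genes of large-conductance channels outside brain. The Kcnd partner Dpp6 had 41.2 and 28.6 TPM, above Kcnd2 in both libraries. Abcc8 and Abcc9, the regulatory subunits that pair with Kcnj11 and Kcnj8, had 3.93 and 2.75 TPM in replicate 1 and 3.15 and 1.70 TPM in replicate 2.

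Between the libraries the members varied about as much as coding genes did. Ratios are log2 of scaled counts of replicate 1 over replicate 2 (edgeR, TMM), for the 85 members averaging 10 or more counts, beside 15327 coding genes. The median ratio was −0.07 for members and 0.004 for coding genes, and the median absolute ratio 0.23 for members and 0.20 for coding genes. Past 2-fold were 9 of 85 members (10.6%), against 10.4% of coding genes. Kcnk15 and Kcns3 were higher in replicate 1 (2 of 85, against 4.05% of coding genes). Kcnj13, Kcnn4, Kcne4, Kcng1, Kcng4, Kcna7 and Kcnmb1 were lower in replicate 1 (7 of 85, against 6.32%). Most of these had few counts, such as 5 and 81 for Kcng4 and 89 and 16 for Kcnk15. At a mean count of at least 200, 1 of 68 members was past 2-fold, against 1.58% of coding genes.

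That member was Kcnj13, an inward rectifier gene of the choroid plexus epithelium, with 110 counts in replicate 1 and 391 in replicate 2. Its log2 ratio was −1.31, with a 95% exact binomial (Clopper-Pearson) interval from −1.64 to −1.01 that covers counting error only. Kcne2, whose subunit is also known from the choroid plexus, had 145 and 359 counts and a log2 ratio of −0.79. Of the 4 other choroid plexus markers 3 were lower in replicate 1 as well, with log2 ratios of −0.63 for Ttr, −0.91 for Aqp1 and −0.26 for Enpp2, and 0.34 for Kl. All 6 listed markers had counts in both libraries, and the 4 others summed to 340 TPM in replicate 1 and 358 TPM in replicate 2. Such sums carry the 1.44-fold higher TPM of coding genes in replicate 1, which the log2 ratios of scaled counts do not. Their part in the result was not tested. Kcnj13 is also uncertain in level, since its deposited posterior mean was 7.65 TPM in replicate 1 (interval 1.24 to 20.1) and 4.33 TPM in replicate 2 (2.24 to 8.18). Its TPM was 1.40 in replicate 1 and 2.43 in replicate 2, so the order of the libraries was reversed by posterior mean TPM. The log2 ratio of its scaled posterior mean counts was −1.31. Of the exon length of Kcnj13, 49.1% overlaps Gigyf2 on the opposite strand, and its count was a whole number in both libraries. Whether the overlap bears on its level was not tested.

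At this depth the next lowest ratios after Kcnj13 were those of Kcnh3 (123 and 308 counts, −0.81), Kcne2, Kcnh8 (314 and 769 counts, −0.78) and Kcnk12 (439 and 994 counts, −0.67). The 3 highest were those of Kcnh6 (512 and 404 counts, 0.85), Kcna5 (427 and 381 counts, 0.67) and Kcng3 (220 and 197 counts, 0.66). Kcnj8, a pericyte gene, had 642 and 631 counts and a log2 ratio of 0.53. The 4 other pericyte and smooth muscle markers all had log2 ratios of scaled counts above 0 (median 0.20), and their TPM, which carries the 1.44-fold factor, summed to 58.45 in replicate 1 and 30.55 in replicate 2. Their part in the result was not tested. Skeletal muscle markers also differed, with log2 ratios of scaled counts from 1.49 to 2.95 over 4 genes and summed TPM, with the same factor, of 51.0 in replicate 1 and 5.78 in replicate 2. At the other end, high members were close, with log2 ratios of 0.02 for Kcnk9 and 0.08 for Kcnd2. Among the 12 highest members Kcnip1 had the largest ratio, 0.42.

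**Figure D3:**
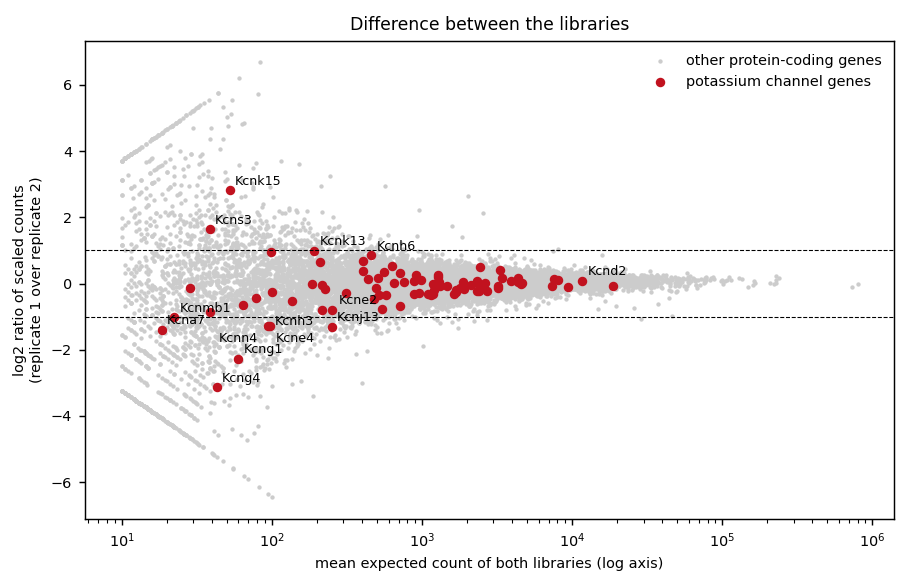
Log2 ratio of TMM-scaled counts, replicate 1 over replicate 2, against mean expected count (log axis) for the 85 members averaging 10 or more counts (red) and other protein-coding genes (grey), with dashed lines at 2-fold. The members lie within the cloud of coding genes, and those past 2-fold lie at low counts, Kcnj13 having the highest count among them.

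Transcript tables give the percent of each gene's TPM held by each annotated transcript. For 41 members with a mean of at least 1 TPM and 2 or more transcripts, the leading transcript was the same in both libraries for 31 (75.6%), against 80% of coding genes. For 26 members it held at least 50% in both. The gene Kcnc1 was steady: Kcnc1-201, with a coding sequence of 1533 nt, held 77.8% in replicate 1 and 77.4% in replicate 2, and Kcnc1-203, with 1755 nt, held 22.2% and 22.6%. The gene Kcnd3 was split between Kcnd3-201 (1965 nt of coding sequence, 53.9% and 58.0%) and Kcnd3-202 (1908 nt, 44.3% and 37.9%). Among the transcripts counted under Kcnma1, the lead was Kcnma1-215, a short transcript of 890 nt, with 34.5% and 19.8% of TPM. It held 225 of 3351 counts in replicate 1 and 156 of 4551 in replicate 2. Kcnma1-205, the transcript of the window above, had a mean of 6.83 TPM but was not counted under this gene.

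The 10 genes whose lead differed were Kcnt1, Kcnip2, Kcnn2, Kcnb2, Kcnip4, Kcnk2, Kcnj16, Kcnmb2, Kcnab3 and Kcne2. In Kcnb2 the leads differ in length (14845 and 3963 nt) but not in the length of coding sequence (2721 nt), with 51.7% for the longer in replicate 1 and 54.3% for the shorter in replicate 2. In Kcnj16 the leads, Kcnj16-202 at 95.1% in replicate 1 and Kcnj16-201 at 65.7% in replicate 2, also share the length of coding sequence (1257 nt). In Kcnip2 the lead had 810 nt of coding sequence in replicate 1 (69.9%) and 756 nt in replicate 2 (43.9%). Kcnt1 was led in replicate 1 by a retained-intron transcript of 532 nt (33.0%) and in replicate 2 by the coding Kcnt1-204 (25.8%).

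**Figure D4:**
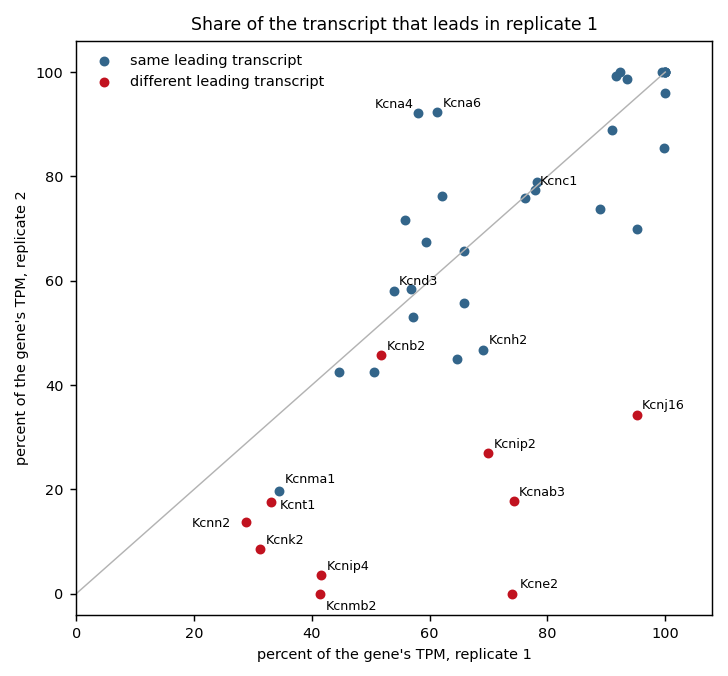
Percent of the gene's TPM held by the transcript that leads in replicate 1, in replicate 1 (horizontal) and replicate 2 (vertical), for 41 members. The 31 genes with the same lead are blue and the 10 with another lead are red, and Kcnc1 lies on the line of equal shares at 77.8% and 77.4%.

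Transcripts annotated as other than protein coding held 10.7% of the family's TPM in replicate 1 and 13.5% in replicate 2, beside 10.5% and 11.2% over all coding genes. In 10 of 63 members with a mean of at least 1 TPM they held at least 20% in both libraries. The same count over all coding genes was not made, so it cannot be read as a trait of the family. Kcna6 had the highest such share, with 76.4% and 96.9%. Its leading transcript, Kcna6-201, is annotated as a target of nonsense-mediated decay and yet carries a coding sequence of 1587 nt, as long as that of its protein-coding transcripts Kcna6-202 and Kcna6-204. The share was 59.7% and 57.6% for Kcnt1, 58.5% and 65.7% for Kcnn2, 57.4% and 52.9% for Kcnj9 and 22.9% and 47.4% for Kcnh2. Exons of 28 of the 94 members overlap those of other genes, 26 of them on the opposite strand and 2 on the same strand. Overlaps of other coding genes were not counted, so these numbers describe the members alone. The overlap covered 39.6% of the exon length of Kcna6, 31.1% of Kcnj3 and 20.8% of Kcnmb4 (with Kcnmb4os2). Use of strand in the counting is not given, so reads of these genes and their antisense partners may not be told apart.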

How the data were processed

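Both libraries of the single group were used, with groups and replicate numbers from the labels. The deposited tables per gene and per transcript hold expected counts (estimated fragments, not always whole), TPM and the percent of a gene's TPM per transcript, per the file headers. Per the deposited file notes they came from transcriptome alignments on mm10 with GENCODE M4, and the quantifier is not given in the sources used here. Symbols, types, coordinates and transcripts came from GENCODE M21 (GRCm38), with 42462 of 43346 gene identifiers (98.0%) matched. Expected counts were rounded and scaled by TMM (edgeR 4.0.16, R 4.3.3, prior count 2) over mouse genes, and the alternatives were size factors of DESeq2 1.42.0, spike-in totals and total counts. The ratio script was tested on simulated data. Pair differences used log2(TPM + 0.1). Floors of 3 counts and intervals cover counting error only, since reads carry no molecular identifiers. The values named were the 12 highest members, the highest of each subfamily, the largest ratios at a mean count of at least 200, opposed members within subfamilies and the 4 highest and 2 lowest partners. Some genes under this rule are not reported here. Other members are named as their subfamilies are described. The members and lists were chosen with earlier results of these data known.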

Additional observations from a re-analysis of the deposited data

How the results depend on the processing

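No paired analysis was possible because the series holds 1 group. The number of members at 1 TPM in both libraries (60) ranged from 44 (threshold 2 TPM) to 83 (a count of at least 10 in both) over 5 alternatives, and was 62 without replicate 1 and 63 without replicate 2. With TPM on protein-coding transcripts alone, chosen after seeing the data, it was 57. The number past 2-fold (9) was 5 at a mean count of at least 50 and 1 at 200, the last chosen after seeing the data, and stayed between 9 and 11 under the other 6 settings. The median log2 ratio (−0.07) was −0.17 with spike-in totals, a scaling that moved the median of all coding genes by −0.10. It changed the sign of 14 of 85 members, including Kcnk9 and Kcnd2, whose ratios were near 0. Under every scaling Kcnj13, Kcnh3, Kcne2, Kcnh6, Kcna5 and Kcng3 kept their sign, as did Kcnh8, Kcnk12 and Kcnj8. By posterior mean TPM the class shares were 26.2% for Kcna to Kcnd, 13.4% for two-pore, 8.54% for inward rectifier and 3.58% for modifier genes. By expected counts they were 37.2% for Kcna to Kcnd, 11.98% for auxiliary, 7.49% for two-pore, 18.3% for Kcnq, 9.03% for calcium- and sodium-activated, 5.69% for inward rectifier, 3.64% for modifier and 0.0177% for the regulator gene, since counts are not divided by length. Pairs beyond the spread (18) numbered 18 or 19, and a single library gives no spread. On protein-coding transcripts alone, chosen after seeing the data, 16 of the 18 kept their direction beyond the spread and 2 reversed, Kcna6 over Kcna3 (log2 difference −2.98) and Kcnn2 over Kcnn1 (−0.76). The leading transcript was the same for 15 of 18 members at a mean of at least 5 TPM, a smaller set than the 41 compared. The deposited posterior mean differed from TPM by over 1.5 times for 7 members (Kcnj13, Kcng2, Kcnq1, Kcng1, Kcne3, Kcnj15 and Kcne1). Effective length differed 1.26- to 1.96-fold between libraries for 12 members, including Kcnh2, Kcnj3 and Kcna4. The TPM of all these members is less certain, and the part of read assignment to transcripts was not tested.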
